A study of Homo sapiens with 22 samples.

Results

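Interferon-stimulated genes are the genes that cells switch on when interferon, a secreted warning of viral infection, reaches them. A list of 43 of them was followed through 22 human RNA-seq libraries. The list was given by gene name. Each of the 43 was found once among the 49149 genes kept from the table, and 43 passed the filter on low values that left 21566 genes to test. The libraries are labelled RWPE1, a line of human prostate epithelial cells that was immortalized and does not form tumours, engineered with an altered pTRIPZ vector. Group Vector (6 libraries) carried the empty vector, group NKX3.1 (6 libraries) overexpressed wild-type NKX3.1, a homeobox protein of luminal prostate cells, and group R52C (6 libraries) overexpressed the form NKX3.1 (R52C). Group T164A (4 libraries) carried the form NKX3.1 (T164A). All titles give paraquat, a compound that generates superoxide by redox cycling, although 3 of the 4 T164A libraries lack the treatment tag. With no untreated library in the series and no virus or interferon named in the labels, all levels below are levels under paraquat as titled. Whether replicate libraries came from different cultures or clones is not given, so a p-value speaks only to the spread among libraries, which could be technical.

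Interferon signalling runs through a short relay. Type I interferons bind the receptor pair IFNAR1 and IFNAR2, type III interferons bind IFNLR1 with IL10RB, and the kinases JAK1 and TYK2 then activate STAT proteins. STAT2 and IRF9 are parts of the factor ISGF3, which binds a DNA element called the ISRE in the promoters of interferon-stimulated genes. The type II receptor, IFNGR1 with IFNGR2, signals through JAK1 and JAK2 to a different element, the GAS. Epithelial cells carry these receptors and also hold sensors of viral RNA and DNA that can set off interferon production. The products of the 43 genes bind or degrade viral RNA, block viral entry or release, tag proteins with ISG15, or feed back on the pathway itself.

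Promoter sequences are shown because the response elements of the pathway lie there, and not every member holds one. RefSeq (GRCh38.p14) had a promoter entry for 34 of the 43 genes, each spanning 250 bases before and 50 bases after the start. The core of the ISRE, taken as GAAA, any 2 bases and GAAA again and searched on both strands, was found in 21 of these 34 (61.8%), against 996 of all 27305 promoters (3.65%). The GAS letters TTCNNNGAA, a palindrome read the same on both strands, were found in 10 of the 34 (29.4%), against 2152 of all promoters (7.88%). The 2 motifs can share bases, as they do upstream of BST2. A match describes the letters and was not tested as a binding site. The 250 bases before the start of IFIT1, on the forward strand of chr10:89392373-89392622, hold 2 ISRE cores, in capitals, both lying in the reverse orientation.
IFIT1: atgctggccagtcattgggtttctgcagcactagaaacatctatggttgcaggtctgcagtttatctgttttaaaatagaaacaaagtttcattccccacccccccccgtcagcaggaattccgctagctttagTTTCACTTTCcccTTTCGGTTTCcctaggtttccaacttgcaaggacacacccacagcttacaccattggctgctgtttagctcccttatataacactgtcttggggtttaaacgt
Shorter windows, each read along its own gene's strand with 1 match in capitals, come from genes that behaved differently below. They are BST2 at chr19:17405736-17405775 (reverse strand), IFI27 at chr14:94110626-94110665 (forward), EPSTI1 at chr13:42992267-42992306 (reverse), ISG15 at chr1:1013375-1013414 (forward), ISG20 at chr15:88638932-88638971 (forward) and IFITM3 at chr11:320871-320910 (reverse), all with an ISRE core, and IRF1 at chr5:132490874-132490912 (reverse) with a GAS match. The windows of BST2, IFI27, ISG15 and EPSTI1 hold further ISRE or GAS matches that overlap or adjoin the one marked and are left in lower case.
BST2: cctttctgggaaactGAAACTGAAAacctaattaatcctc
IFI27: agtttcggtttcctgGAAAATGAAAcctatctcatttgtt
EPSTI1: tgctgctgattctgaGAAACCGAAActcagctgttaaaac
ISG15: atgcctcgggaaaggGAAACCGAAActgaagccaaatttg
ISG20: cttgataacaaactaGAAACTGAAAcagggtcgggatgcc
IFITM3: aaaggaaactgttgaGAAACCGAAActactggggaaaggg
IRF1: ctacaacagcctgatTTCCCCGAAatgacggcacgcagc
The marked cores of EPSTI1, ISG15 and IFITM3 are the same 10 letters, and those of ISG20 and BST2 are also the same as each other. EPSTI1 fell in all 3 groups with a form of NKX3.1 relative to Vector, ISG15 fell a little, IFITM3 did not pass the test in any comparison, and ISG20 rose in 2 groups while BST2 fell by more than 100-fold in 1.

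Levels are on the log2 scale of the deposited table, as mean ± SD, and a change of 1 is 2-fold. Values below 3 lie within the noise of undetected genes, so 3 is the detection limit. The libraries differed in more than the interferon genes, and this touches every comparison. Groups are called by their labels throughout. The labelled line goes against the markers of R52C. The log2 of the summed linear levels of 10 basal markers was 10.8 to 11.1 there against 17.7 to 18.0 in Vector. Such a sum follows its highest genes, here ITGA6 in R52C (mean 10.23) and KRT5 in Vector (mean 16.90). KRT15 and TP63 were under the limit in all 6 R52C libraries. For 11 luminal markers the same measure was 17.9 in R52C against 13.6 to 14.6 in Vector. In T164A the basal sum was 16.9 to 17.0 and the luminal sum 10.4 to 10.5, with KLK3, KLK2 and TMPRSS2 under the limit. An R52C-like share was estimated in each library from 91 genes detected in R52C and not in T164A, none of them an interferon gene. It was 24.8% to 30.8% in NKX3.1 and 5.59% to 10.3% in Vector. The 95.9% to 101.6% in R52C and 0.18% to 0.20% in T164A were largely fixed by the choice of genes and reference, and are no finding. Given the markers above, a difference in cell type or line cannot be told apart from an effect of R52C or T164A. Fewer cells expressing a gene also cannot be told apart from less RNA per cell.

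The list as a whole stood highest in Vector. Its median log2 level over the 43 genes was 9.50 to 9.66 in the Vector libraries, 9.17 to 9.31 in NKX3.1, 7.13 to 7.28 in T164A and 6.12 to 6.37 in R52C, with no overlap between groups. The median over all tested genes stayed between 7.35 and 7.67 in every library, yet it also split by group without overlap. It was lowest for R52C (7.35 to 7.37), followed by Vector (7.47 to 7.53), NKX3.1 (7.57 to 7.58) and T164A (7.65 to 7.67). Lack of overlap is thus not particular to the list, which differed from all tested genes in the size and order of its shifts. Group means ran in the order Vector, NKX3.1, T164A, R52C for 27 of the 43 genes, and 9 more differed only in that T164A was the lowest. Vector was highest in 38 genes, and R52C was highest in 4 genes. R52C was lowest in 30 genes and T164A in 10.

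**Figure D1:**
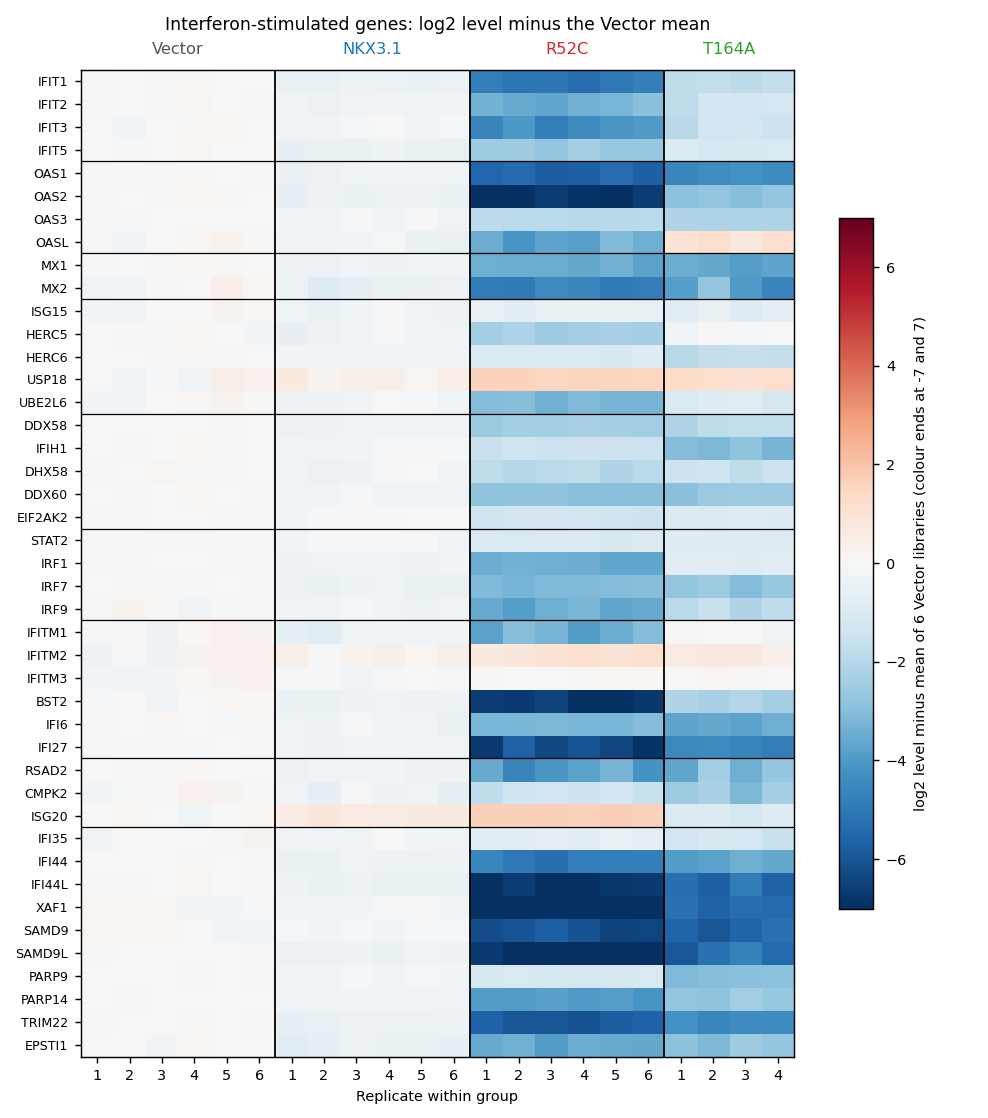
Each row is 1 of the 43 interferon-stimulated genes, grouped by role, and each column 1 library. Colour is the log2 level minus the mean of the 6 Vector libraries (blue lower, red higher), with colours ending at -7 and 7. The R52C block is the darkest blue, the NKX3.1 block is pale, and USP18, ISG20 and, more faintly, IFITM2 are the red rows of R52C.

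The IFIT proteins bind viral RNA at its 5′ end and block its translation. IFIT1 ranged from 10.11 to 10.34 in Vector (median 10.17), from 9.67 to 9.86 in NKX3.1 (median 9.76) and from 4.85 to 5.39 in R52C (median 5.17). In T164A it was 8.39, 8.48, 8.38 and 8.54. The 4 groups did not overlap, and R52C stood at 3.1% of the Vector level. IFIT2, IFIT3 and IFIT5 took the same order, with means of 9.01, 8.97 and 9.66 in Vector and 5.69, 4.66 and 7.11 in R52C. IFIT5 kept the most of its level in R52C, 17.1% of Vector.

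The OAS enzymes sense double-stranded RNA and make the messenger 2-5A, which activates RNase L, while OASL has lost that activity and acts with the sensor RIG-I. OAS1 was at 9.74 ± 0.10 (SD, n = 6) in Vector, 9.43 ± 0.10 (SD, n = 6) with NKX3.1, 4.18 ± 0.18 (SD, n = 6) in R52C and 5.36 ± 0.13 (SD, n = 4) in T164A. OAS2 was above 9 in each Vector library and between 0.77 and 2.60 in R52C, under the limit in all 6. OAS3 had narrow groups, from 11.43 to 11.55 in Vector, 9.58 to 9.64 in R52C and 9.32 to 9.36 in T164A. OASL went its own way: 7.63 to 8.10 in Vector (median 7.88), 3.72 to 4.81 in R52C (median 4.30), and 8.80, 9.12, 8.62 and 9.05 in T164A, each above the highest Vector library. OAS1, OAS3 and OAS2 lie next to each other in RefSeq's gene order, and OASL was the 1 family member of the 4 that was higher in T164A than in Vector.

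The MX GTPases trap viral nucleocapsids. MX1 was 10.37 to 10.64 in Vector, 6.72 to 7.14 in R52C and 6.66 to 7.03 in T164A, so that R52C and T164A overlapped. MX2, a restriction factor of HIV in human cells, was 7.0 to 7.75 in Vector and 6.44 to 6.93 in NKX3.1. It was under the limit in all 6 R52C libraries, and in T164A it was 3.43, 4.55, 3.33 and 2.69.

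ISG15 is a ubiquitin-like protein that UBE2L6 and HERC5 attach to other proteins and USP18 takes off, and USP18 also blocks the type I receptor. These 5 genes, with HERC6, did not move as a block. ISG15 itself ranged from 9.16 to 9.65 in Vector (median 9.37), from 8.93 to 9.30 in NKX3.1 (median 9.08) and from 8.62 to 8.94 in R52C (median 8.87), and was 8.64, 8.85, 8.48 and 8.72 in T164A. NKX3.1 overlapped Vector, and R52C and T164A lay below Vector. UBE2L6 was 9.0 to 9.43 in Vector and 5.83 to 6.20 in R52C. HERC5 was 9.36 to 9.65 in Vector and 6.97 to 7.37 in R52C, but 9.30, 9.60, 9.38 and 9.48 in T164A, within the range of Vector. USP18 ran in the opposite order, from 5.74 to 6.49 in Vector (median 5.98), 6.27 to 6.74 in NKX3.1 (median 6.48) and 7.52 to 7.68 in R52C (median 7.61), with 7.35, 7.26, 7.14 and 7.28 in T164A. USP18 has a near-identical copy, USP41, so reads may be split between them. USP41 was under the limit in all libraries of Vector, NKX3.1 and R52C and in 3 of the 4 of T164A, the other being at 4.35.

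Among the sensors, DDX58 encodes RIG-I and IFIH1 encodes MDA5, which recognize viral RNA in the cytosol. DDX58 was 9.53 to 9.66 in Vector, 7.02 to 7.31 in R52C and 7.50 to 7.88 in T164A. IFIH1 was lower in T164A (6.70, 6.61, 6.91 and 6.52) than in R52C (8.19 to 8.35), with 9.62 to 9.88 in Vector. DHX58, a regulator of both sensors, had means of 8.23 in Vector, 6.33 in R52C and 6.70 in T164A, and DDX60, an accessory helicase, 10.68, 7.80 and 7.99. EIF2AK2 encodes PKR, the kinase that stops translation on double-stranded RNA, and kept a mean of 10.33 in R52C against 11.68 in Vector.

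The transcription factors of the pathway separated from each other. STAT2 was 11.34 to 11.55 in Vector, 10.34 to 10.43 in R52C and 10.53 to 10.62 in T164A, and R52C stood at 48.4% of the Vector level. IRF9, its partner in ISGF3, was 8.33 to 8.83 in Vector (median 8.62), 8.25 to 8.52 in NKX3.1 (median 8.33) and 4.74 to 5.39 in R52C (median 5.05), which is 8.59% of the Vector level. In T164A IRF9 was 6.72, 7.02, 6.49 and 6.82. IRF1, a target of interferon gamma through a GAS element, was 9.71 to 9.87 in Vector, 6.12 to 6.46 in R52C and 8.94 to 9.06 in T164A. IRF7, which amplifies type I interferon production, was 10.82 to 11.01 in Vector, 7.68 to 7.93 in R52C and 7.87 to 8.40 in T164A, the last 2 overlapping.

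Of the membrane-associated products, BST2, or tetherin, holds budding virions at the cell surface. It ranged from 10.49 to 10.79 in Vector (median 10.68), from 10.18 to 10.43 in NKX3.1 (median 10.30) and from 3.23 to 4.19 in R52C (median 3.94), and was 8.58, 8.37, 8.64 and 8.37 in T164A. The R52C libraries held 0.87% of the Vector level. The mitochondrial proteins IFI6 and IFI27 were 10.28 to 10.46 and 10.57 to 10.82 in Vector, 7.15 to 7.32 and 3.88 to 5.08 in R52C, and means of 6.77 and 6.11 in T164A. The IFITM proteins block fusion of virus with the cell and are near-identical paralogs, so reads may be split among them. IFITM1 was 6.72 to 7.37 in Vector, 3.14 to 4.08 in R52C and 6.83 to 7.13 in T164A, the last within the range of Vector. IFITM2 was 6.71 to 7.38 in Vector, 7.76 to 8.20 in R52C and 7.40 to 7.70 in T164A. IFITM3 was 8.94, 9.07 and 9.05 in 3 Vector libraries (replicates 2, 1 and 3) and 9.42, 9.51 and 9.57 in the other 3, and all groups lay between 8.94 and 9.57. The 3 neighbouring IFITM genes thus showed 1 fall, 1 rise and 1 level inside the spread of Vector in R52C.

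RSAD2 (viperin) and CMPK2 make and supply a chain-terminating nucleotide and are neighbours in the genome. RSAD2 was 7.40 to 7.69 in Vector, 2.94 to 4.26 in R52C and 3.87, 5.10, 4.14 and 4.82 in T164A. CMPK2 was 6.87 to 7.34 in Vector, 5.30 to 5.76 in R52C and 4.49, 4.78, 3.93 and 4.74 in T164A, so the lower of R52C and T164A differed between these neighbours. ISG20 is an exonuclease of single-stranded RNA. It ranged from 6.98 to 7.50 in Vector (median 7.28), from 7.79 to 8.07 in NKX3.1 (median 7.87) and from 8.91 to 9.02 in R52C (median 8.95), and was 6.26, 6.31, 6.05 and 6.40 in T164A. Its 4 groups did not overlap.

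The remaining 10 genes held the lowest levels of R52C. XAF1, a promoter of apoptosis, was 9.99 to 10.40 in Vector and -0.51 to 1.99 in R52C, and 4.99, 4.53, 4.88 and 4.77 in T164A. Vector replicates 1 to 3 of XAF1 stood at 10.34 to 10.40 and replicates 4 to 6 at 9.99 to 10.07. SAMD9 and its neighbour SAMD9L, restriction factors of poxviruses, had means of 11.19 and 9.39 in Vector, 5.02 and 0.52 in R52C, and 5.59 and 4.05 in T164A. IFI44 and its neighbour IFI44L had 10.58 and 9.22 in Vector, 5.70 and 1.97 in R52C, and 6.91 and 3.83 in T164A. TRIM22, an E3 ubiquitin ligase, went from 10.95 in Vector to 5.09 in R52C and 6.54 in T164A. EPSTI1 went from 8.06 to 4.50 and 5.26. The mono-ADP-ribosyltransferase PARP14 went from 11.76 to 7.84 and 9.09. Its family member PARP9 went from 10.99 to 9.84 in R52C and to a lower 8.03 in T164A. IFI35 changed least of the 10, from 8.01 to 7.32 in R52C and 6.72 in T164A.

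**Figure D2:**
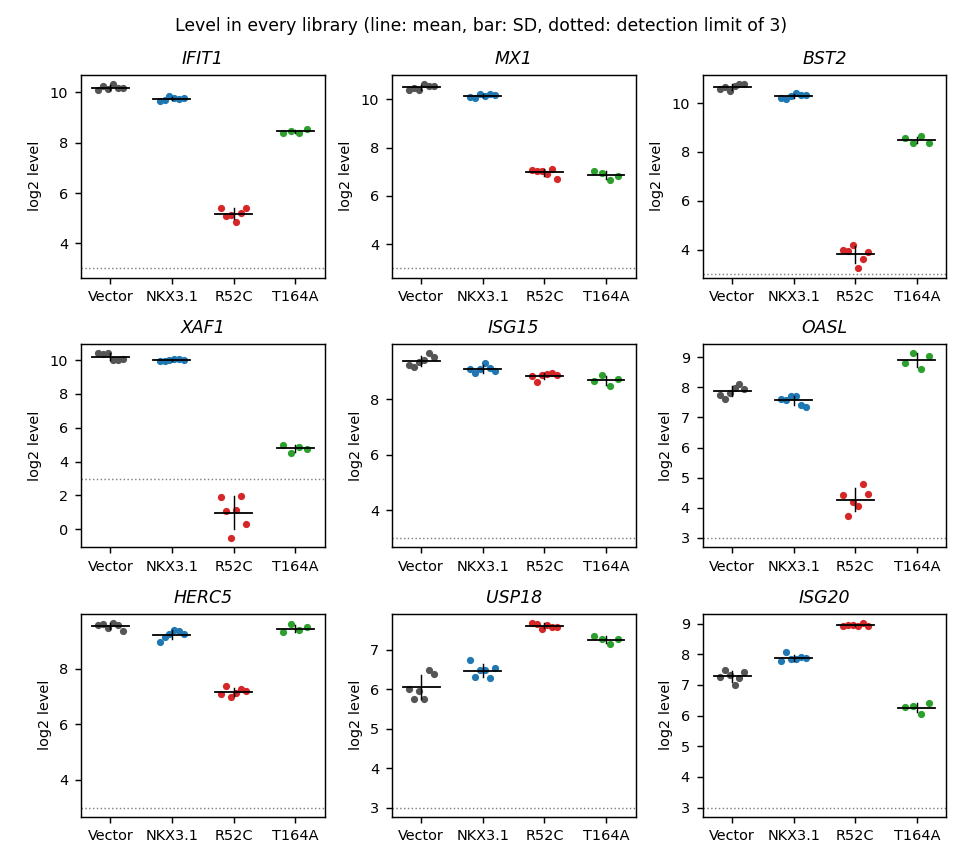
Log2 level of 9 genes in every library (points), with the group mean (line) and SD (bar), and the detection limit of 3 as a dotted line. IFIT1, BST2 and XAF1 were lowest in R52C, MX1 overlapped between R52C and T164A, OASL was highest in T164A, and USP18 and ISG20 were highest in R52C.

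Wild-type NKX3.1 against the empty vector asks how overexpression of the protein changed these genes. Relative to Vector, 29 of the 43 genes fell, 2 rose and 12 did not pass the test (limma, Benjamini-Hochberg over all tested genes, adjusted p under 0.05). Over all tested genes 19.4% fell and 21.5% rose. The median change of the list was -0.28, against -0.01 over all tested genes, and 0 members were at least 2-fold lower or higher, against 0.116% and 5.22% of all tested genes. The 2 groups did not overlap for 24 lower genes and 1 higher gene, against 11.6% and 12.2% of all tested genes. EPSTI1 fell by 0.56 (SE 0.11, adjusted p = 0.000138 by limma), IFIT5 by 0.48 (SE 0.06, adjusted p = 5.09e-07) and IFIT1 by 0.44 (SE 0.07, adjusted p = 1.03e-05). All 4 transcription factors fell, from STAT2 by 0.14 to IRF7 by 0.42. ISG20 rose by 0.61 (SE 0.07, adjusted p = 1.30e-07 by limma) and USP18 by 0.41 (SE 0.11, adjusted p = 0.00286).

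The 12 that did not pass were OAS2 (-0.46), IFI44L (-0.45), SAMD9L (-0.37), OASL (-0.30), RSAD2 (-0.30), IFI27 (-0.30), XAF1 (-0.19), IFIT3 (-0.14), SAMD9 (-0.13), EIF2AK2 (-0.09), IFITM3 (-0.08) and IFITM2 (0.25). For OAS2, IFI44L, SAMD9L, RSAD2 and IFI27 every NKX3.1 library lay below every Vector library. The spread used for them was shared with R52C, whose values for the first 3 of these genes were noise below the limit. With only Vector and NKX3.1 in the fit, 37 genes were called lower. Without NKX3.1 replicate 2, 21 were called lower. The matching shares of all tested genes are not given for these fits, so the counts show only how the calls depend on the fit.

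The NKX3.1 libraries held more R52C-like RNA than the Vector libraries, with median shares of 26.1% and 7.66%, and the interferon genes were low in R52C. When the R52C profile was subtracted from each library in its share, 3 genes were called lower, namely ISG15 (-0.27), EPSTI1 (-0.26) and IFIT5 (-0.22), and 2 higher, SAMD9 (0.20) and IFIT3 (0.18). The median change of the list became -0.035, with -0.063 over the 16176 genes fitted, of which 12.1% were then called lower and 1.82% higher. The change was smaller in size after subtraction for 39 of the 43 genes. For a gene low in R52C, the subtraction by itself raises NKX3.1 relative to Vector, because the shares differ. This count and the shift of the median are therefore no test of the list, and the count was not made over all genes. ISG15 barely moved, from -0.30 to -0.27. ISG20 went from 0.61 to 0.14 and USP18 from 0.41 to -0.22, neither of them called afterwards. ISG15 was one of the genes with the smallest fall in R52C.

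**Figure D3:**
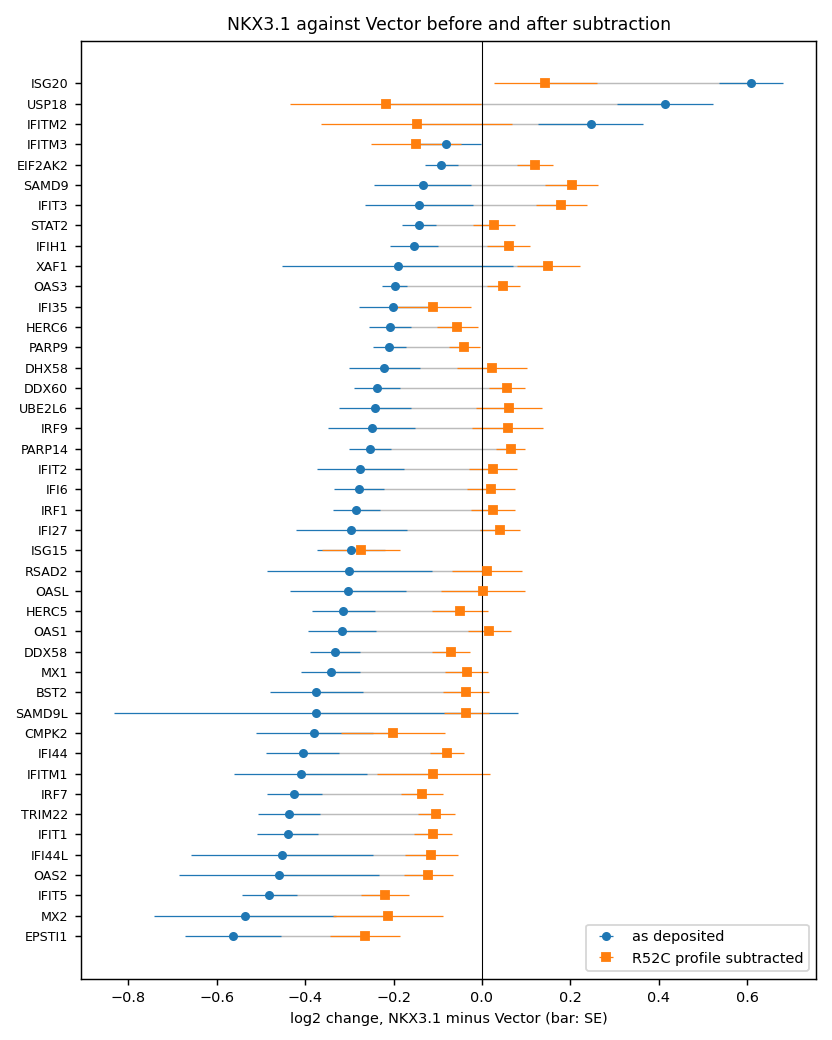
Log2 change of the 43 genes, NKX3.1 minus Vector (points, bar SE), as deposited (blue circles) and with the R52C profile subtracted (orange squares), ordered by the deposited change. Most orange squares lie near 0, and the median moved from -0.28 to -0.035.

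R52C against the empty vector gave the widest separation. Of the 43 genes 39 fell, 3 rose and 1 did not pass, against 41.8% falling and 42.0% rising over all tested genes. The fall was at least 2-fold in 37, against 23.7% of all tested genes, and the median change was -3.32, against -0.00 over all. In all 39 no R52C library reached the lowest Vector library (35.1% of all tested genes). XAF1, SAMD9L, OAS2, IFI44L and MX2 were under the limit in all 6 R52C libraries. With those values raised to the limit, XAF1 was at least 147-fold lower, SAMD9L at least 83.6-fold, OAS2 at least 74.8-fold, IFI44L at least 74.7-fold and MX2 at least 19.8-fold. RSAD2, with 1 library under the limit, was at least 14.8-fold lower.

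Among genes above the limit, BST2 fell by 6.85 (SE 0.11), or 115-fold, IFI27 by 6.33 (80.3-fold), SAMD9 by 6.17 (71.8-fold), TRIM22 by 5.86 (58.3-fold), OAS1 by 5.56 (47.3-fold) and IFIT1 by 5.01 (SE 0.07, 32.3-fold, adjusted p = 1.02e-28 by limma). At the other end, ISG15 fell by 0.54 (SE 0.08, adjusted p = 3.76e-07 by limma), IFI35 by 0.69, HERC6 by 1.01 and STAT2 by 1.05. ISG20 rose by 1.67 (SE 0.07), USP18 by 1.55 (SE 0.11) and IFITM2 by 0.93 (SE 0.12). IFITM3 differed by 0.07 (SE 0.08, adjusted p = 0.384 by limma). By role, the median change was -4.58 for the OAS family, -3.82 for the IFIT family, -3.29 for the transcription factors, -1.90 for the RNA sensors and -1.01 for ISG15 and its enzymes. In the same libraries 10 of 10 basal markers fell and 11 of 11 luminal markers rose, and the part of that difference in the interferon genes was not tested.

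T164A against the empty vector gave a fall of most of the list with other exceptions. Here 37 fell, 3 rose and 3 did not pass, against 41.7% falling and 40.4% rising over all tested genes, and 32 fell at least 2-fold, against 22.2% of all. In all 37 the T164A libraries lay below every Vector library, against 34.6% of all tested genes. The median change was -2.15, against -0.05 over all. The largest falls were SAMD9 by 5.60 (48.5-fold), XAF1 by 5.40 (42.3-fold), IFI44L by 5.39 (42.0-fold) and SAMD9L by 5.34 (40.4-fold). MX2, with 1 library under the limit, was at least 13.3-fold lower. USP18 rose by 1.20 (SE 0.12), OASL by 1.03 (SE 0.15, adjusted p = 4.79e-07 by limma) and IFITM2 by 0.54 (SE 0.13). HERC5 differed by -0.10 (SE 0.08), IFITM1 by -0.03 (SE 0.17) and IFITM3 by 0.07 (SE 0.09), and none of these passed. ISG20 fell by 1.03 (SE 0.08), while it rose in R52C. The median change was -3.72 for the MX pair and -1.44 for the IFIT family. Of the markers, 10 of 11 luminal genes fell, 6 of 10 basal genes fell and 1 rose, and their part in the result was not tested. R52C and T164A were compared with the same Vector libraries. The T164A libraries alone list mm9 as their only build, so a difference in processing cannot be told apart from an effect of T164A.

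R52C against T164A compares the forms directly. R52C was lower for 30 of the 43 genes, higher for 10 and not different by the test for 3, with 45.3% lower and 38.4% higher over all tested genes. The median difference was -0.85, or -0.76 with values under the limit raised to it, against -0.09 over all. The difference, R52C minus T164A, was -4.67 (SE 0.12) for BST2, -4.63 (SE 0.15) for OASL, -3.36 (SE 0.17) for IFITM1, -3.27 (SE 0.08) for IFIT1, -2.71 (SE 0.06) for IRF1 and -2.27 (SE 0.08) for HERC5. R52C was higher by 2.70 (SE 0.08) for ISG20, 1.81 (SE 0.04) for PARP9, 1.58 (SE 0.06) for IFIH1, 1.12 (SE 0.15) for CMPK2, 0.70 for HERC6, 0.60 for IFI35, 0.43 for IFI6, 0.39 for IFITM2, 0.35 for USP18 and 0.26 for OAS3. MX1 (0.12), ISG15 (0.17) and IFITM3 (0.01) did not pass. All 4 IFIT genes and all 4 transcription factors were lower in R52C, although STAT2 (-0.17) turned to 0.14 when every library was set to the same median. DDX60 (-0.19) turned to 0.11 by that scaling and DHX58 (-0.36) to 0.03 by quantile normalization.

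NKX3.1 against R52C placed 39 genes higher in NKX3.1 and 3 lower, against 39.4% and 40.7% of all tested genes, with a median difference of 2.98. The 3 lower genes were USP18 (-1.14), ISG20 (-1.06) and IFITM2 (-0.69). ISG15 was higher by only 0.24 (SE 0.08, adjusted p = 0.00577 by limma), with groups that overlapped. NKX3.1 against T164A placed 37 genes higher and 5 lower, against 42.3% and 39.4% of all tested genes, with a median difference of 1.8. The 5 lower genes were OASL (-1.33), USP18 (-0.79), IFITM1 (-0.38), IFITM2 (-0.30) and HERC5 (-0.22). Without T164A replicate 2 the lower genes numbered 2, and without T164A replicate 1, T164A replicate 3 or NKX3.1 replicate 2 they numbered 3. The shares of all tested genes in those fits are not given. IFITM3 did not pass in either comparison.

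**Figure D4:**
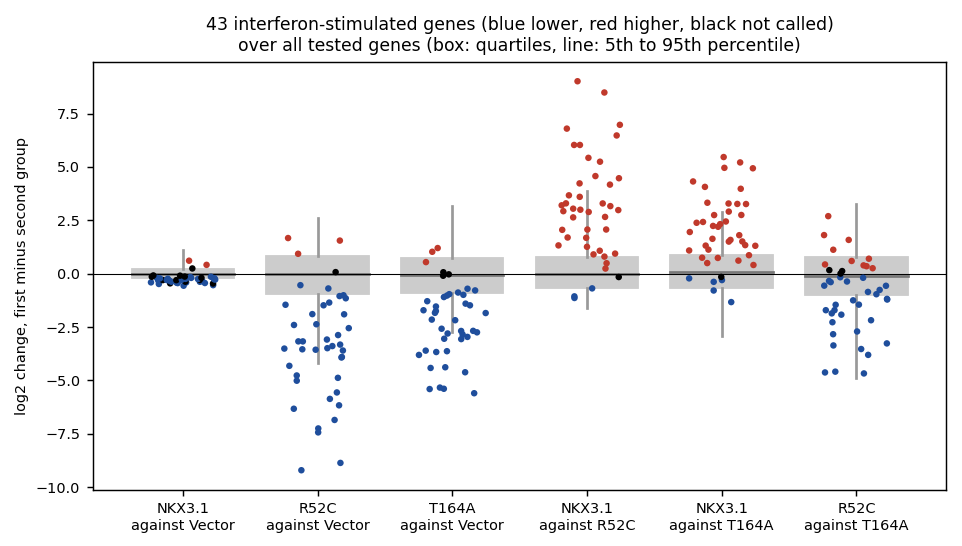
Log2 change of the 43 genes (points, blue lower, red higher, black not called) in each of the 6 comparisons, first group minus second. Behind them are all tested genes, with the box for the quartiles and the line for the 5th to 95th percentile. Most points of R52C against Vector and T164A against Vector lie below the box, with medians of -3.32 and -2.15.

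Upstream of the 43 genes stand the receptors and kinases. Of 9 such genes, 5 fell and 4 rose in R52C relative to Vector, where 41.8% of all tested genes fell and 42.0% rose. In T164A 3 fell and 3 rose, against 41.7% and 40.4%, and in NKX3.1 3 fell and 2 rose, against 19.4% and 21.5%. These counts lie near those of all tested genes. JAK1, the kinase shared by all 3 interferon receptors, fell by 3.59 (SE 0.06, adjusted p = 1.64e-26 by limma) in R52C, from a mean of 11.12 to 7.53, and by 0.16 in T164A. JAK2 rose by 1.57 in R52C, and fell by 0.56 in T164A. TYK2 fell by 0.89 in R52C and did not pass in T164A (0.09). IFNLR1, the type III receptor chain, was under the limit in all 6 R52C libraries, a fall of at least 5.47 on the log2 scale, and did not pass in T164A (-0.11). IFNAR1 rose by 0.96 in R52C and did not pass in T164A (-0.04), and IFNAR2 rose by 0.37 and 0.83. IFNGR1 fell by 2.61 and 1.63. JAK1 in NKX3.1 fell by 0.34, but with the R52C profile subtracted limma called 0 of the 9 genes (0 also at an unadjusted p under 0.05).

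Of 8 interferon genes listed (IFNA1, IFNB1, IFNE, IFNK, IFNG, IFNL1, IFNL2 and IFNL3), IFNE, an epithelial type I interferon, alone passed the filter on low values. Its mean level was 8.46 (Vector), 8.22 (NKX3.1), 0.13 (R52C) and 3.65 (T164A). It was under the limit in all 6 R52C libraries, a fall of at least 5.46, and fell by 4.81 (SE 0.30) in T164A. It did not pass in NKX3.1 (-0.24). Vector replicates 1 to 3 stood at 8.83 to 8.91 and replicates 4 to 6 at 7.99 to 8.12, with NKX3.1 between them at 8.12 to 8.32, so the sign of that difference depends on which Vector libraries are used.

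Of 12 genes listed for nucleic acid sensing, ZBP1 alone did not pass the filter on low values. Of the 11 tested, 8 fell and 2 rose in R52C (41.8% and 42.0% of all tested genes). In T164A 8 fell and 2 rose (41.7% and 40.4%), and in NKX3.1 5 fell and 1 rose (19.4% and 21.5%). MB21D1 encodes cGAS, the sensor of cytosolic DNA, and fell by at least 6.36 in R52C and by 1.72 in T164A. TMEM173 encodes STING, which acts after cGAS, and fell by 1.22 in R52C but did not pass in T164A (0.10). TLR3, an endosomal receptor of double-stranded RNA, fell by 2.61 and 2.35. IRF3, the factor that switches on interferon genes, fell by 0.95 and 0.50. MAVS, the mitochondrial adaptor of RIG-I and MDA5, rose by 0.34 and 0.18. In NKX3.1 with the R52C profile subtracted, limma called 0 of the 11 (1 at an unadjusted p under 0.05).

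Of 14 genes listed as targets of interferon gamma, 9 passed the filter on low values. GBP5, IDO1, CXCL9 and CXCL10 were under the limit in every library, and CXCL11 also did not pass the filter. Of the 9 tested, 9 fell in R52C (41.8% of all tested genes). In T164A 8 fell and 1 rose (41.7% and 40.4%), and in NKX3.1 5 fell (19.4%). PSMB8, a subunit of the immunoproteasome, fell by 3.71 in R52C and 1.87 in T164A, and TAP1, the peptide transporter of antigen presentation, by 0.47 and 0.42. WARS, a tRNA synthetase, fell by 0.59 in R52C and rose by 0.23 in T164A. GBP2, a guanylate-binding protein, fell by 1.91 in R52C, and by at least 4.27 in T164A. Of 6 negative regulators of interferon signalling, 5 fell in R52C, 4 fell and 1 rose in T164A, and 2 fell in NKX3.1, against the same shares of all tested genes. SOCS3, an inhibitor of JAK kinases, fell by at least 2.01 in R52C, and did not pass in T164A (0.32). In NKX3.1 with the R52C profile subtracted, limma called 0 genes of either list (0 also at an unadjusted p under 0.05).

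**Figure D5:**
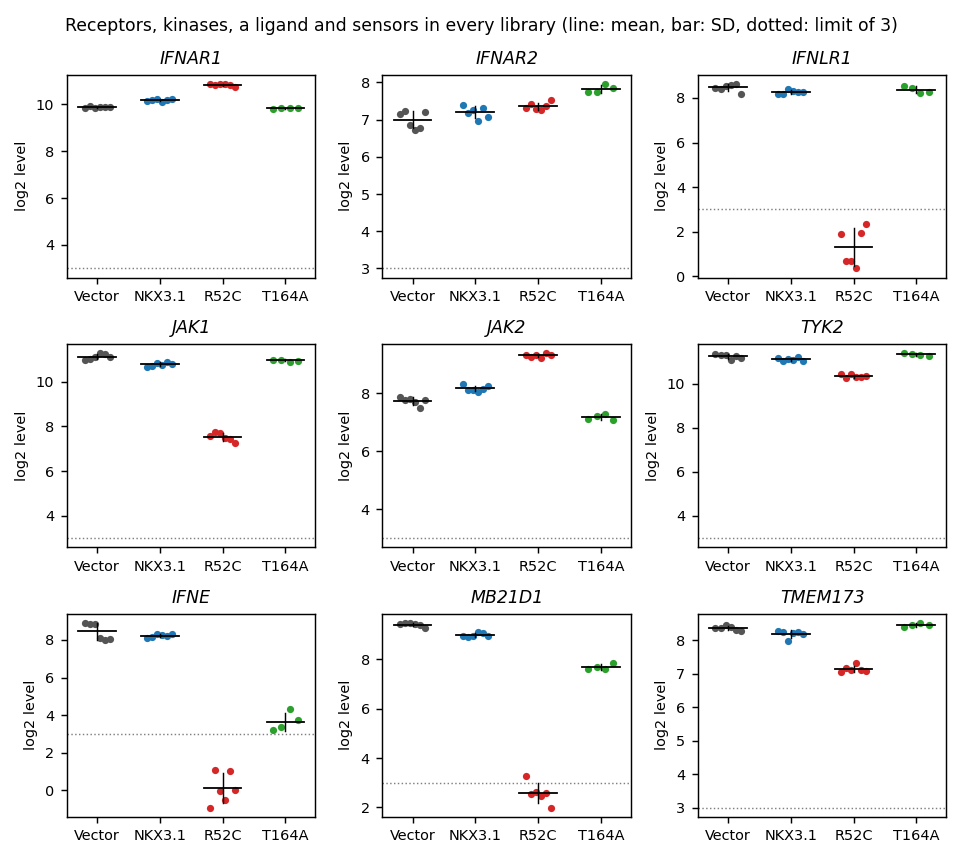
Log2 level of 3 receptor chains, 3 kinases, the interferon IFNE and the sensing genes MB21D1 (cGAS) and TMEM173 (STING) in every library (points), with the group mean (line), SD (bar) and the detection limit of 3 (dotted). JAK1, IFNLR1 and MB21D1 were lowest in R52C, and JAK2 and IFNAR1 were highest there.

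Changes of genes with and without an ISRE core lay side by side. In R52C relative to Vector the median change was -3.39 over the 21 genes with a core, of which 19 fell and 1 rose. It was -3.17 over the 13 without one, of which 13 fell. Over all tested genes 41.8% fell and 42.0% rose, with a median change of -0.00. In T164A the medians were -2.18 and -1.84, and in NKX3.1 they were -0.30 and -0.25. ISG20, which rose in R52C, and IFITM3, which did not pass, both held a core, as did BST2. Of the 43 genes, 20 had another member as a direct neighbour in RefSeq's gene order, in 11 pairs. Members of a pair did not always match in size: SAMD9L and IFI44L were under the limit in R52C while SAMD9 and IFI44 stayed above it, and HERC5 fell by 2.37 in R52C while HERC6 fell by 1.01.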

How the data were processed

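The deposited table held log2 expression values for 22 libraries. Per the labels, RNA was poly-A selected and prepared with the Illumina TruSeq RNA kit. CASAVA 1.8.2, DESeq, Cufflinks and TopHat appear in the submitters' processing notes, as do the builds GRCh37 and mm9 (mm9 alone for T164A), without roles. How the values were normalized and whether strand was used are not given in the sources used here. Counting intervals need read depth, which is unknown. No pair of libraries held identical values.

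Of 56299 entries, 3473 had no gene name. Where 501 symbols were shared, the entry with the highest mean was kept and 3677 were left out. Entries with a mean under 0 held noise (mean -0.19, SD 1.00, 99.9th percentile 2.81), hence the limit of 3, which a gene had to pass in at least 4 libraries to be tested. The 4 groups were fitted together in limma 3.58.1 under R 4.3.3, with a trend of the spread on expression, two-sided tests and Benjamini-Hochberg adjustment over all tested genes. A call needs an adjusted p under 0.05. The fit was tested on simulated data. Fold changes of genes with libraries under the limit are bounds, with values raised to 3.

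For the R52C-like share, 91 genes averaging at least 8 in R52C and under 3 in T164A were divided by their linear mean in R52C replicates 4 to 6, and the density peak of these ratios is the share. Markers were basal and luminal prostate epithelium, immune cells, fibroblast and endothelial cells, and neuroendocrine cells. The members, the lists and the share were chosen with earlier results of these data known. All 43 members are accounted for, and the text names, by role, the largest and smallest changes, those against the majority and those not called. Some marker genes are not reported here. Promoters are RefSeq's, and no coordinates of the authors' builds were used. Alternatives changed scaling, filter, limit, spread and libraries.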

Additional observations from a re-analysis of the deposited data

Results flagged for a closer look

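Over 172 groups (43 genes in 4 groups), 5 held a library far from the others by Dixon's test, where chance gives about 5%, or 8.6. ISG15 was low in R52C replicate 2, at 8.62 against a group median of 8.87. DDX60 was low in T164A replicate 1, at 7.73 against 8.07. IFITM3 was low in NKX3.1 replicate 3, at 9.09 against 9.19. IFI6 was high in R52C replicate 6, at 7.32 against 7.19. IFI35 was high in NKX3.1 replicate 4, at 8.02 against 7.76.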

How the results depend on the processing

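No paired analysis was possible because the labels number libraries, not replicates shared between groups. Read depth is unknown, so levels near 3 carry an unknown counting error. The doubtful identity of R52C and T164A cannot be removed by any setting. Of 5246 single values of the 43 genes under other settings, 5026 kept their side of the threshold, 129 lost the call, 53 gained one and 38 reversed. A change of sign was counted as reversed only where the value was called in the report or under the other setting. Changes of sign without a call are therefore among the 5026. The causes of the changes below were not tested, unless named. Counts of called genes below come without the share of all tested genes under the same setting, and so describe the calls only.

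With every library at the same median, the median of all genes moved from -0.01 to -0.10 in NKX3.1 against Vector, from -0.00 to 0.14 in R52C against Vector, from -0.05 to -0.21 in T164A against Vector, from -0.03 to -0.25 in NKX3.1 against R52C, and from -0.09 to 0.21 in R52C against T164A. Quantile normalization moved it to 0.19 in R52C against Vector, -0.27 in NKX3.1 against R52C and 0.11 in R52C against T164A. With every library at the same median, the share of calls that were higher went from 52.6% to 35.5% in NKX3.1 against Vector, from 45.9% to 57.8% in R52C against T164A and from 49.1% to 39.3% in NKX3.1 against R52C. Medians of the 43 genes under the same median and under quantile normalization were -3.18 and -3.05 for R52C against Vector, -2.32 and -2.25 (T164A against Vector), 2.76 and 2.68 (NKX3.1 against R52C), 1.89 and 1.96 for NKX3.1 against T164A, and -0.55 and -0.51 for R52C against T164A. The median of NKX3.1 against Vector was -0.37 at the same median. R52C against T164A also gave -0.76 with values raised to 3, -0.75 with only R52C replicates 4 to 6, and -0.99 to -0.69 leaving out 1 library. The genes lower in NKX3.1 against T164A, 5 in the report, numbered 2 by both scalings, 3 with no filter, 3 with no trend, and 2 to 5 leaving out 1 library. R52C against Vector gave -3.17 with only Vector replicates 1 to 3 and -3.22 with only R52C replicates 4 to 6.

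In NKX3.1 against Vector the lower genes were 21 to 28 leaving out 1 library (21 without NKX3.1 replicate 2), and the higher were 4 with only Vector replicates 1 to 3 and 1 with only replicates 4 to 6. With Vector replicates 1 to 3, called interferon gamma targets were 2 and called negative regulators 1, and with replicates 4 to 6 called sensing genes were 3. Subtraction left 3 lower genes and a median of -0.035, and 0 called receptors and kinases, sensing genes, interferon gamma targets or negative regulators. With the share taken as the median ratio, a setting chosen after seeing the data, the same counts came out (3 lower, 0 in each of those lists) with a median of -0.0073.

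Under subtraction (first value) and its median-ratio form (second), changes in NKX3.1 against Vector reversed for IFIT2 (0.024, 0.051), IFIT3 (0.18, 0.21), OAS1 (0.017, 0.046), OAS3 (0.049, 0.071), USP18 (-0.22, -0.33), UBE2L6 (0.061, 0.088), IFIH1 (0.0602, 0.0804), DHX58 (0.022, 0.045), DDX60 (0.057, 0.083), STAT2 (0.028, 0.044), IRF1 (0.025, 0.052), IRF9 (0.058, 0.086), IFI6 (0.0201, 0.047), SAMD9 (0.20, 0.23), PARP14 (0.065, 0.093), JAK2 (-0.18, -0.28), TYK2 (0.019, 0.034) and TMEM173 (0.021, 0.039), and in the second form for EIF2AK2 (0.14). That list counts a reversal only where the value was called before or under subtraction. In the first form EIF2AK2 also changed sign, from -0.092 to 0.12, without a call. OASL (0.0025), RSAD2 (0.011), IFI27 (0.041), XAF1 (0.15) and IFITM2 (-0.15) changed sign in that form too, also without a call. With only Vector replicates 1 to 3, IFITM3 in NKX3.1 turned to 0.16. With only replicates 4 to 6 it was -0.17 in R52C and in T164A. In R52C against T164A, the same median turned DDX60 to 0.11, STAT2 to 0.14, TLR3 to 0.0405, TRIM25 to 0.081, TAP1 to 0.26 and PTPN2 to 0.12. Quantile normalization turned DHX58 to 0.029, DDX60 to 0.068, TLR3 to 0.12, TAP1 to 0.12 and PTPN2 to 0.00091, and in NKX3.1 against T164A it turned MAVS to 9.7e-05.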

Other observations

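Markers of other cells were read in the same libraries. Of 6 immune markers, CD3E, MS4A1 and LYZ were under the limit in every library, and PTPRC in all but 1 Vector library, at 3.05. The log2 of the summed linear immune levels was 9.15 to 9.39 (Vector), 9.06 to 9.31 (NKX3.1), 6.92 to 7.05 (R52C) and 8.34 to 8.56 (T164A). Most of it was CD68, with means of 9.04, 8.99, 6.88 and 8.38 in that order. Of 7 fibroblast and endothelial markers, COL1A2, DCN and CDH5 were under the limit in every library. The sums of the 7, taken the same way and by group in the same order, were 10.4 to 10.9, 10.6 to 10.7, 9.01 to 9.28 and 9.47 to 9.51. The highest mean was that of COL1A1 in each group (10.67, 10.56, 8.05 and 9.20), with VWF (8.03) near it in R52C. The 6 neuroendocrine markers had sums of 9.46 to 9.84, 9.80 to 9.90, 10.3 to 10.4 and 10.5 to 10.6. Their highest mean was that of ENO2 in Vector, NKX3.1 and R52C (9.60, 9.79 and 10.26) and of NCAM1 in T164A (9.49). Each sum thus follows its highest genes more than the whole list. NCAM1 was above Vector in T164A by at least 6.49 on the log2 scale. The part of these markers in the interferon results was not tested.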
